A study of Mus musculus with 2 samples.

Results

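The Ly49 genes encode killer cell lectin-like receptors, type II membrane proteins of mouse lymphocytes with a C-type lectin-like domain that binds MHC class I. Inhibitory members carry an ITIM motif in the cytoplasmic tail and recruit the phosphatases encoded by Ptpn6, Ptpn11 and Inpp5d, whereas activating members lack it and signal through the adaptor DAP12, encoded by Tyrobp. The receptors are best known on natural killer (NK) cells, and they are also known on subsets of NKT cells and memory CD8 T cells. Single cells are known to switch on different combinations of them, so that neighbouring cells carry different sets.

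The genes described here are the 8 family members whose gene symbols are Klra1, Klra3, Klra4, Klra5, Klra6, Klra7, Klra8 and Klra9, chosen by symbol and not by their values. All 8 had a row among the 27998 features. They were followed in droplet single-cell libraries of CD45+ liver leukocytes from C57BL/6 mice 7 to 10 weeks old, with 1 library for each of 2 sorting gates. The CD122+CD49a+ gate took lineage-negative (Lin-) cells with CD122, the interleukin-2 receptor beta chain, and CD49a, integrin alpha 1, on the surface. The LSM gate took Lin- cells with Sca-1 and Mac-1. No difference has a replicate check, so no p-value is given, and every 95% interval covers counting error only. The labels do not say how many mice were pooled.

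Barcodes with at least 500 detected genes were kept, which left 1257 of 1655 CD122+CD49a+ barcodes with 2351659 unique molecular identifiers (UMIs), and 3074 of 3133 LSM barcodes with 16187182 UMIs. The median barcode had 1461 UMIs in the CD122+CD49a+ library and 5100.5 in the LSM library, and 3 barcode sequences occurred in both. Of the CD122+CD49a+ barcodes, 760 were classed as lymphocytes, because their UMIs of 20 lymphocyte genes outnumbered those of 20 phagocyte genes. Of the other 497, 92.0% had a Tyrobp UMI and 72.8% a UMI of Lyz2, the lysozyme gene of macrophages and monocytes. The gate's own markers had UMIs in the lymphocytes above the other barcodes. Il2rb (CD122) was detected in 48.3% of lymphocytes and 1.81% of other barcodes, and Itga1 (CD49a) in 9.87% of lymphocytes and 1.41% of other barcodes. Although the sort was labelled Lin-, 719 of the 760 lymphocytes (94.6%) had a UMI of a CD3 or CD8 chain. Ncr1 was detected in 14 of the 760 lymphocytes, and Eomes, an NK cell marker, in 9.

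The 8 genes lie on the minus strand of mouse chromosome 6, between positions 129898996 and 130386874 of GRCm38, a span of 488 kb that also holds Klra10 and 3 pseudogenes in GENCODE M21. Klra7, the most abundant member here, runs from 130218605 to 130233322. The last 60 coding bases of the members the results turn on are printed to show how alike the genes are near the end of the transcript from which polyadenylated RNA was primed. They are taken from GENCODE transcripts, run 5′ to 3′ on the minus strand to the stop codon, and carry capitals where a base differs from Klra7 at the same place counted from the stop codon.
Klra7 (chr6:130218900-130218959): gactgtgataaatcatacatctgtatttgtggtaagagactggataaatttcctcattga
Klra1 (chr6:130364220-130364279): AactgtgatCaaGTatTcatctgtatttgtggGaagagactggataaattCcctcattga
Klra3 (chr6:130323604-130323663): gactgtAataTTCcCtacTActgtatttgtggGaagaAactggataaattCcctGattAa
Klra9 (chr6:130178990-130179049): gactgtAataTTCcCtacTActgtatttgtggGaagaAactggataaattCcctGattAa
Klra8 (chr6:130115536-130115595): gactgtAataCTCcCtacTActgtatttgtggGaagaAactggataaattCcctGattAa
Klra5 (chr6:129899312-129899371): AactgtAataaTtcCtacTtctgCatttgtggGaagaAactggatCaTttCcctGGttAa
Klra1 differed from Klra7 at 7 of the 60 bases and Klra5 at 14. Klra3 and Klra9 shared their last 60 coding bases, and over the whole coding sequence they were 95.9% identical, the closest of the 28 pairs. The pairs' identity ranged from 75.6% for Klra7 and Klra8 upward, with a median of 80.6%. Counting of reads is least certain where members share sequence. In the last 500 bases of the transcripts, 91.5% of 90-base windows of Klra3, 85.9% of Klra9 and 89.8% of Klra7 occurred in no other Klra transcript, and 100% of those of the other 5 members. Windows of Klra3 and Klra9 were shared with each other and with Klra10, and those of Klra7 with the pseudogene Klra13-ps.

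The promoters of a pair of members often seen together, Klra7 and Klra6, and of Klra3, a further frequent partner of Klra7, are printed because members were detected in combination. The sequences come from RefSeq (GRCm38.p6), reach from 250 bases before to 50 bases after the annotated start, and run 5′ to 3′ on the minus strand. Capitals mark the letters CTTTGA, a core bound by TCF and LEF factors such as the product of Tcf7, which is known to act on Ly49 genes, searched on both strands together with the RUNX core TGTGGT.
Klra7 (chr6:130233273-130233572): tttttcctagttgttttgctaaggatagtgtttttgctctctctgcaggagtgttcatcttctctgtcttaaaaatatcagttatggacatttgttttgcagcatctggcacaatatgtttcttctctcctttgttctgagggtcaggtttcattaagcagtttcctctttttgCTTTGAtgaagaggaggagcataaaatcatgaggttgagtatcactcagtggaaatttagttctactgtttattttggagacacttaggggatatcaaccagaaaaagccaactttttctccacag
Klra6 (chr6:130026905-130027204): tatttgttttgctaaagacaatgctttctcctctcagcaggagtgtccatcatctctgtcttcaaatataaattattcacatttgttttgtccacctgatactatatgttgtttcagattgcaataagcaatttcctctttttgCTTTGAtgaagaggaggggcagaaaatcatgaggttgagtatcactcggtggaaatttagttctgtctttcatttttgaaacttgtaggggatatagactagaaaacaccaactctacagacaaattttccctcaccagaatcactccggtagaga
Klra3 (chr6:130337577-130337876): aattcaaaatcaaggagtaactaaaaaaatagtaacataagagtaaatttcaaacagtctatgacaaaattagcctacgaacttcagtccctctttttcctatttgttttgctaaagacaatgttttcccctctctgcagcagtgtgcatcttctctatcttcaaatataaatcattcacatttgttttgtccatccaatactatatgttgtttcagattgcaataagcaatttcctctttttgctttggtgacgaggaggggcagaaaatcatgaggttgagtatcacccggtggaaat
CTTTGA or its reverse complement occurred in the promoters of Klra6 and Klra7 alone among the 8 members, and in 16.0% of all 32851 promoters of this length. The promoter of Klra1, which shared 19 of its 36 cells with Klra7, is not printed and held no CTTTGA. The core was thus absent from some frequent partners of Klra7. The RUNX core was in 1 of the 8 members' promoters, that of Klra1, and in 16.8% of all promoters. Both matches are descriptions of the sequence and do not show binding.

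Between the libraries, Ly49 transcripts were found mainly in the CD122+CD49a+ gate. The 8 members together gave 536 UMIs, or 228 CPM (UMIs scaled to a common library total), in the CD122+CD49a+ library and 49 UMIs, or 3.03 CPM, in the LSM library. The ratio was 75.3-fold (56.1 to 103). At least 1 Ly49 UMI was present in 159 of 1257 CD122+CD49a+ barcodes (12.6%) and in 33 of 3074 LSM barcodes (1.07%).

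Klra7, which encodes the inhibitory receptor Ly49G, led the family with 238 UMIs (101 CPM) in the CD122+CD49a+ library and 4 UMIs (0.247 CPM) in the LSM library, a ratio of 410 (158 to 1515). Klra1, encoding inhibitory Ly49A, had 88 UMIs in the CD122+CD49a+ library and 2 in the LSM library, a ratio of 303 (81.4 to 2540). The intervals of these 2 ratios overlapped. Lymphocytes classed by score numbered 760 in the CD122+CD49a+ and 232 in the LSM library, and 84 of the 232 had a CD3 or CD8 UMI. Over these lymphocytes Klra7 was at least 68.9-fold and Klra1 at least 25.6-fold higher in the CD122+CD49a+ library. The LSM library had no UMI of either gene there, so a floor of 3 counts was used. The lymphocytes of the 2 libraries are thus unlike in kind. Klra3, encoding inhibitory Ly49C, which binds the H-2K product of C57BL/6 mice, had 77 UMIs in the CD122+CD49a+ library and 23 in the LSM library, 23.04-fold (14.3 to 38.5). Klra9, encoding inhibitory Ly49I, had 47 UMIs against 7 in the LSM library (46.2-fold, 20.8 to 121), and over lymphocytes by score its ratio was 5.86. Among lymphocytes with a CD3 or CD8 UMI, Klra9 was in 24 of 719 CD122+CD49a+ cells and 4 of 84 LSM cells. Klra6, encoding Ly49F, had 39 against 1 in the LSM library, and Klra5, encoding Ly49E, had 36 against 2.

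The activating genes were scarce. Klra4, encoding Ly49D, had 8 UMIs in 2 CD122+CD49a+ barcodes and 9 UMIs in 4 LSM barcodes, 6.12-fold (2.05 to 17.9) in CPM. Of the 8 UMIs, 7 were in 1 CD122+CD49a+ barcode, the share of barcodes with a UMI was 0.159% in the CD122+CD49a+ and 0.130% in the LSM library, and the ratio of CPM averaged over cells was 1.23. Klra8, encoding Ly49H, the receptor for the mouse cytomegalovirus protein m157, had 3 UMIs in 1 CD122+CD49a+ barcode and 1 UMI in the LSM library. With a minimum of 20 UMIs over both libraries, 6 of the 8 members could be set against a 2-fold threshold, all but Klra4 and Klra8. All 6 were at least 2-fold higher in the CD122+CD49a+ library, as were 26.4% of the 11411 genes with that many UMIs, and none was 2-fold lower, as were 9.67% of those genes. Only Klra3 reached the minimum through the LSM library as well, so the other 5 had to differ and their count supports nothing.

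**Figure D1:**
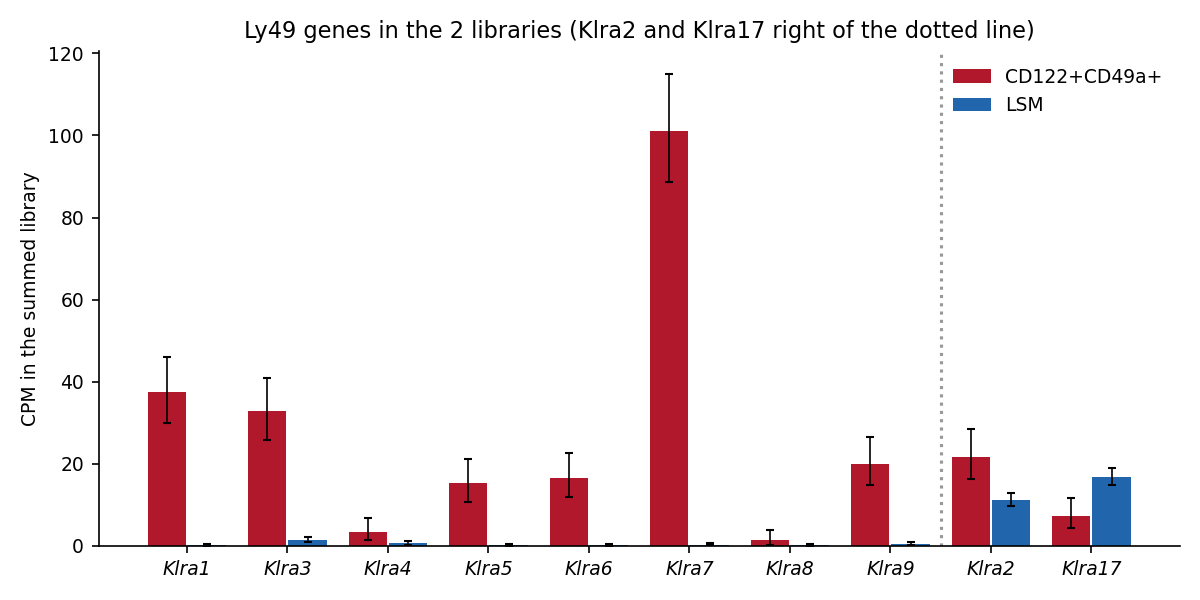
Levels of the Ly49 genes in the summed CD122+CD49a+ (red, left of each pair) and LSM (blue) libraries, in CPM, with exact 95% Poisson intervals for counting error. Klra7 stands at 101 CPM in the CD122+CD49a+ library and 0.247 in the LSM library, and the 2 other Ly49-named genes right of the dotted line, Klra2 and Klra17, show no such gap.

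In the LSM library the few Ly49 transcripts fell into separate kinds of barcodes. Among 84 lymphocytes with a CD3 or CD8 UMI, 7 (8.33%, 3.42 to 16.4) had a Ly49 UMI, compared with 26 of the other 2990 LSM barcodes (0.870%, 0.569 to 1.27), of which 22 held a single UMI. The 84 lymphocytes had a median of 2327 UMIs and the others 5171. The lymphocytes carried 7 UMIs of Klra9 in 4 cells, 6 of Klra3 in 3 cells and 1 of Klra5, and none of Klra7. The summed Ly49 level was 66.1 CPM in the 84 LSM lymphocytes and 470 CPM in CD122+CD49a+ lymphocytes with CD3 or CD8. In CD122+CD49a+ lymphocytes with CD3 or CD8 the share with any Ly49 UMI was 20.4% (17.6 to 23.6), and Klra7 had a UMI in 83 of these 719 cells. None of the 84 LSM lymphocytes had one, which allows a share of up to 3.57%. Klra3 and Klra9 share most of their coding sequence, so their counts in these few cells are uncertain. Outside the lymphocytes, 1 LSM barcode without CD3 or CD8 held 7 UMIs of Klra4, Klra7 and Klra8 together.

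Within the CD122+CD49a+ library, Ly49 transcripts were in lymphocytes both with and without a CD8 chain transcript. Among 126 lymphocytes with a Cd8a or Cd8b1 UMI, 21 (16.7%, 10.6 to 24.3) had a Ly49 UMI. Among 593 with a CD3 chain UMI and no CD8 chain UMI, 126 (21.2%, 18.0 to 24.8) had one. A further 27 lymphocytes had a Tyrobp or Fcer1g UMI without CD3 or CD8, and 7 of them (25.9%, 11.1 to 46.3) had a Ly49 UMI. None of the 14 lymphocytes with none of these transcripts had one, which allows up to 21.4%. In the 497 other barcodes, the measure of free RNA here, the share was 1.01%, each with 1 UMI, although their median depth of 2192 UMIs was above that of the CD8-transcript (1438) and CD3-transcript (1264) classes. After each cell was thinned to 1000 UMIs, the shares were 12.4% (6.94 to 19.9) of 113 CD8-transcript cells, 19.9% (16.4 to 23.8) of 472 CD3-transcript cells, 22.2% of 18 cells with neither, and 0.698% of 430 other barcodes.

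The summed Ly49 level was 391 CPM in CD8-transcript and 489 CPM in CD3-transcript lymphocytes, a ratio of 0.799 with an interval (0.624 to 1.01) that includes 1. Over the alternative rules tried it ranged between 0.148 and 1.15, so its side of 1 depended on how cells were classed. By UMIs, the members were divided unequally between the classes. Klra7 was at 231 CPM in CD8-transcript and 208 CPM in CD3-transcript cells, 1.11-fold (0.793 to 1.53). Klra3 was at 9.41 CPM in CD8-transcript and 68.8 CPM in CD3-transcript cells, a ratio of 0.137 (0.0162 to 0.516), from 2 and 60 UMIs. Klra1 was also lower in CD8-transcript cells, with 28.2 against 94.1 CPM in CD3-transcript cells (0.300, 0.107 to 0.682). The share of cells with Klra3 was 1.59% (0.193 to 5.62) in CD8-transcript and 5.23% (3.58 to 7.34) in CD3-transcript cells. For Klra1 it was 2.38% (0.494 to 6.80), from 3 cells, and 5.56% (3.86 to 7.73), so the intervals overlapped for each gene. Klra5 was at 56.5 CPM in CD8-transcript and 26.4 CPM in CD3-transcript cells, 2.14-fold (0.970 to 4.48). Its 12 UMIs in CD8-transcript cells were in 3 cells, and the shares of cells with it were 2.38% in CD8-transcript and 2.36% in CD3-transcript cells. Of the 6 members with 20 UMIs over both classes, 1 was at least 2-fold higher and 2 at least 2-fold lower in CD8-transcript cells, against 2.52% of 5639 genes higher and 17.3% lower.

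Within both classes Ly49 transcripts were detected more often in cells with a signalling adaptor transcript. Tyrobp encodes DAP12, and Fcer1g encodes the Fc receptor gamma chain, a second adaptor with an ITAM motif. Among CD8-transcript lymphocytes, 18 of 31 cells with a Tyrobp or Fcer1g UMI (58.1%, 39.1 to 75.5) had a Ly49 UMI, compared with 3 of 95 cells without one (3.16%, 0.656 to 8.95). The level was 1488 CPM in the cells with and 31.2 CPM in the cells without an adaptor UMI, 47.7-fold (19.6 to 151). The ratio was 14.0 when barcodes with at least 300 genes were kept, and at least 7.15, against a floor of 3 counts, with at least 1000. All 49 UMIs of Klra7 in this class were in the 31 adaptor-positive cells. Klra5 had 12 UMIs there and 0 in the cells without an adaptor UMI, at least 12.2-fold higher against a floor of 3 counts over the group. Of the 8 members only Klra7 reached 20 UMIs in this split, and it was at least 49.9-fold higher in adaptor-positive cells. Of the 1183 genes with that many UMIs, 6.26% were at least 2-fold higher and 8.03% lower. Klra7 had to differ to reach 20 UMIs, and the count supports nothing.

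Among CD3-transcript lymphocytes, 85 of 135 cells with an adaptor UMI (63.0%, 54.2 to 71.1) and 41 of 458 without (8.95%, 6.50 to 11.9) had a Ly49 UMI. The summed level was 1376 CPM with and 145 CPM without an adaptor UMI, 9.50-fold (7.51 to 12.1). Thinning to 1000 UMIs gave 55.2% of 116 adaptor-positive cells and 8.43% of 356 without. Each of the 6 members with 20 UMIs was at least 2-fold higher in the adaptor-positive cells, against 3.69% of 5044 genes, and none was lower, against 10.4%. Klra1 and Klra7 reached 20 UMIs through the adaptor-negative cells too. The other 4 reached it only where they were high and had to differ, so the count of 6 supports nothing. Klra1 had 222 CPM with and 44.6 CPM without an adaptor UMI (4.98-fold, 3.10 to 8.16). Klra7 had 600 CPM with and 55.7 CPM without (10.8-fold, 7.40 to 16.0). Klra1 gave 16.1% of the Ly49 UMIs in adaptor-positive cells and 30.8% of those in adaptor-negative cells, a difference with no test. Klra3 had 52 UMIs with and 8 without an adaptor UMI. All 11 UMIs of the activating genes Klra4 and Klra8 in lymphocytes were in 2 adaptor-positive CD3-transcript cells. Those 2 cells held 8185 and 8420 UMIs, beside a median of 1433 in adaptor-positive CD3-transcript cells, and the part of depth was not tested. At 1000 UMIs per cell Klra4 was in 0 and Klra8 in 1 of 472 CD3-transcript cells.

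The share also varied with which adaptor was detected, though the intervals for the single adaptors overlapped. In the CD3-transcript class a Ly49 UMI was present in 47 of 60 cells with both adaptors (78.3%, 65.8 to 87.9), 28 of 45 with Fcer1g alone (62.2%, 46.5 to 76.2), 10 of 30 with Tyrobp alone (33.3%, 17.3 to 52.8) and 41 of 458 with neither. In the CD8-transcript class the counts were 16 of 20 with both, 2 of 5 with Fcer1g alone, 0 of 6 with Tyrobp alone and 3 of 95 with neither. Hcst, which encodes the adaptor DAP10, had a UMI in 82.5% of CD3-transcript cells with and 76.2% of those without a Ly49 UMI. Because phagocyte barcodes of the same library are rich in Tyrobp, other phagocyte transcripts are given beside it, and their part in the result was not tested. Lyz2 had a UMI in 4.76% of CD3-transcript cells with and 3.21% of those without a Ly49 UMI, and Cst3 in 29.4% with and 28.5% without. Tyrobp had a UMI in 45.2% with and 7.07% without a Ly49 UMI, and Fcer1g in 59.5% with and 6.42% without. In CD8-transcript cells Lyz2 was at 0 of 21 cells with and 2.86% of cells without a Ly49 UMI.

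**Figure D2:**
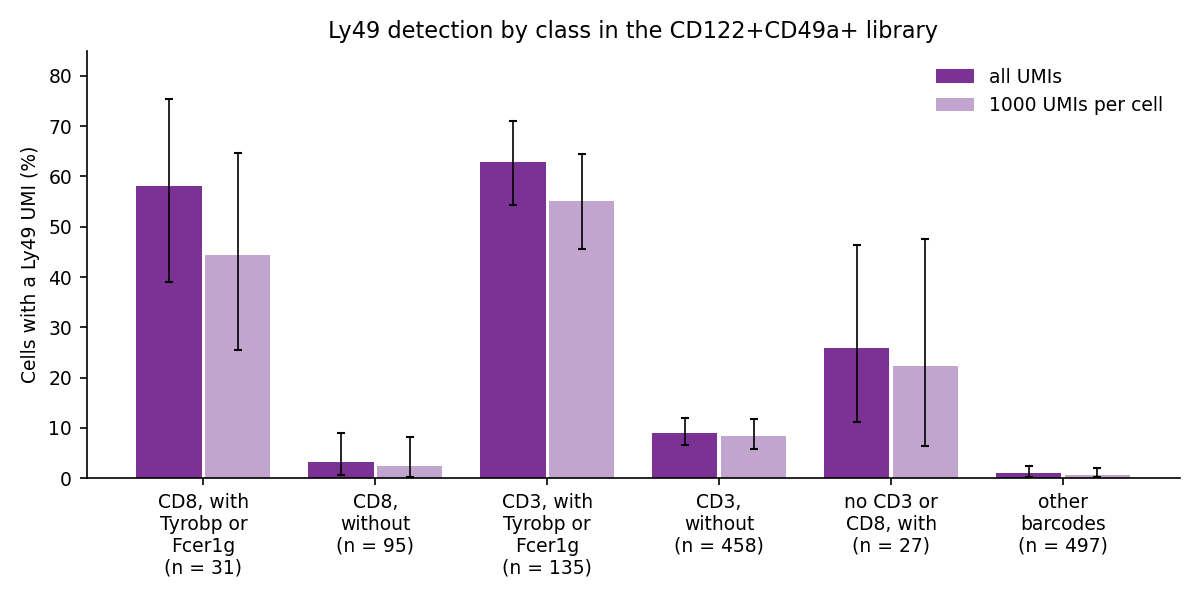
Share of cells with a UMI of any of the 8 Ly49 members in 6 classes of the CD122+CD49a+ library, with all UMIs (dark) and after thinning to 1000 UMIs per cell (light); error bars are exact 95% binomial intervals for counting error, and n is the number of cells before thinning. In both CD8-transcript and CD3-transcript lymphocytes the share is above 40% with a Tyrobp or Fcer1g UMI and below 10% without.

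The CD8 chains divided the CD8-transcript class further, a split chosen after the values were seen. CD8 is known as a heterodimer of alpha and beta chains on conventional cytotoxic T cells and as an alpha homodimer on some innate-like and intraepithelial lymphocytes. Of 40 cells with Cd8a and no Cd8b1 UMI, 18 (45.0%, 29.3 to 61.5) had a Ly49 UMI. Of 47 cells with Cd8b1 alone, 3 (6.38%, 1.34 to 17.5) had one, and of 39 cells with both chains none did, which allows up to 7.69%. The Ly49 level was 1199 CPM with Cd8a alone and 46.9 CPM in the 86 cells with any Cd8b1 UMI. An adaptor UMI was present in 22 of the 40 cells with Cd8a alone and 9 of the 86 with Cd8b1. The median depths of the 3 groups were 1449, 1429 and 1482 UMIs, and 37 of the 40 cells with Cd8a alone also had a CD3 UMI. As a measure of free RNA, Cd8a was detected in 1.61% and Cd8b1 in 0.402% of the other barcodes. A Cd8b1 transcript can be missed at this depth, so the 40 cells need not lack it.

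**Figure D3:**
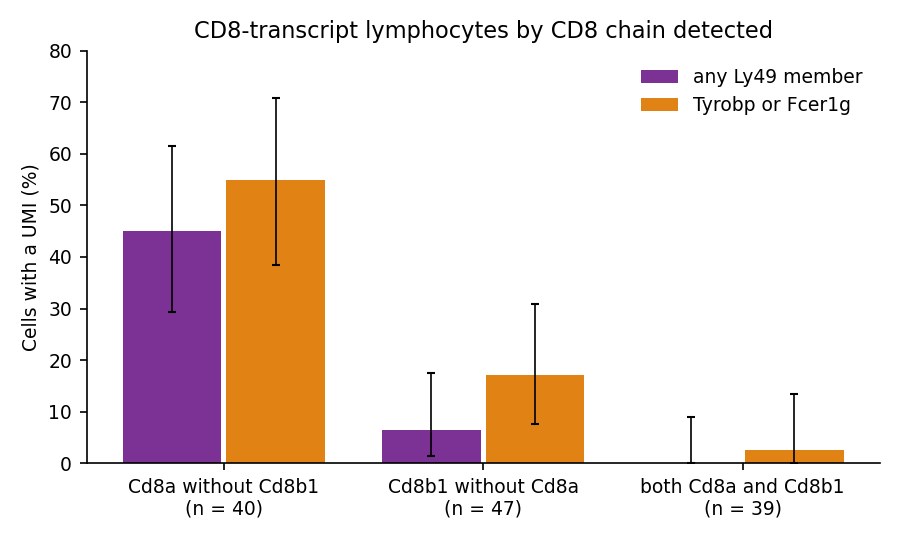
CD8-transcript lymphocytes of the CD122+CD49a+ library by the CD8 chains detected (x axis, with the number of cells), and the share with a UMI of any Ly49 member (purple) or of Tyrobp or Fcer1g (orange), with exact 95% binomial intervals. Ly49 was found in 45.0% of cells with Cd8a alone, 6.38% with Cd8b1 alone and none with both.

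Among the 154 lymphocytes with a Ly49 UMI, the members differed in how many cells carried them. Klra7 was present in 87 cells and gave 237 of the 531 Ly49 UMIs (44.6%). Klra3 followed with 37 cells, Klra1 with 36, Klra6 with 30, Klra9 with 26 and Klra5 with 17. Klra4 was in 2 cells and Klra8 in 1. As shares of the 760 lymphocytes these were 11.4% (9.27 to 13.9) for Klra7, 4.87% (3.45 to 6.65) for Klra3, 4.74% (3.34 to 6.50) for Klra1, 3.95% (2.68 to 5.59) for Klra6, 3.42% (2.25 to 4.97) for Klra9 and 2.24% (1.31 to 3.56) for Klra5. The interval of Klra7 lay above all others, and those of Klra3, Klra1, Klra6 and Klra9 overlapped one another.

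A single member was detected in 94 of the 154 cells, 2 members in 43, 3 in 12 and 4 in 5. Detection of 2 or more depended on depth, being 39.0% (31.2 to 47.1) of positive lymphocytes with all UMIs and 29.5% (21.2 to 38.8) at 1000 UMIs per cell. Of the 79 cells with at least 3 Ly49 UMIs, 52 carried 2 or more members and 27 carried 1, the highest total being 15 UMIs in a cell. The most frequent patterns were Klra7 alone in 37 cells, Klra3 alone in 15, Klra1, Klra9 and the pair of Klra3 and Klra7 in 14 each, the pair of Klra6 and Klra7 in 13, and Klra5 alone in 10. Klra6 was seen alone in 4 cells, and 21 of its 30 cells also had Klra7. Klra1 shared 19 of its 36 cells with Klra7, Klra3 shared 17 of its 37, and Klra5 shared 4 of its 17. The CD8-transcript and CD3-transcript classes had 2 or more members in 8 of 21 and 49 of 126 positive cells, or 38.1% (18.1 to 61.6) and 38.9% (30.3 to 48.0). At 1000 UMIs per cell these were 42.9% of 14 and 27.7% of 94 positive cells.

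Because positive cells were concentrated among adaptor-positive cells, pairs were also counted within the 135 adaptor-positive CD3-transcript cells and set beside the product of the members' shares times the number of cells. Klra6 and Klra7 were together in 11 cells beside a product of 5.69, Klra1 and Klra7 in 12 beside 7.11, and Klra3 and Klra7 in 14 beside 9.24. Klra5 and Klra7 were together in 3 beside 4.27, and Klra7 and Klra9 in 3 beside 4.98. Deeper cells show more of every gene, and at 1000 UMIs per cell Klra3 and Klra7 were together in 5 cells beside 5.12, Klra6 and Klra7 in 4 beside 1.99 and Klra1 and Klra7 in 6 beside 3.41. Over all 28 pairs, 13 exceeded the product with all UMIs and 8 did at 1000 UMIs. The activating genes Klra4 and Klra8 were together in 1 cell, which carried no other member.

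**Figure D4:**
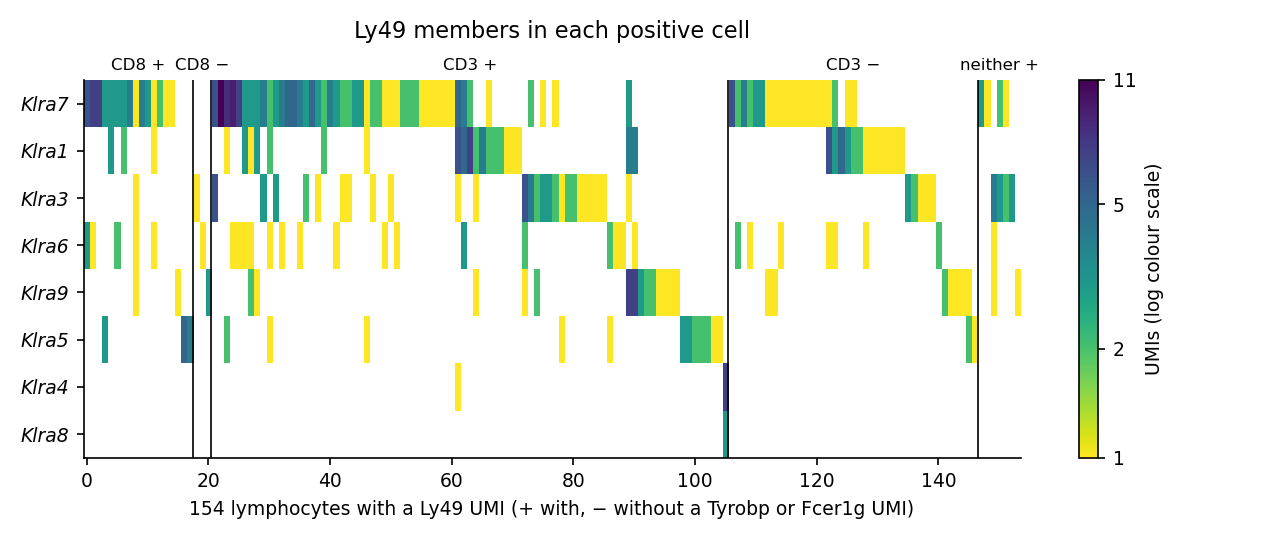
UMIs of the 8 Ly49 members (rows) in each of the 154 CD122+CD49a+ lymphocytes with a Ly49 UMI (columns), grouped by CD8 transcript, CD3 transcript without CD8, or neither, and by presence (+) or absence (−) of a Tyrobp or Fcer1g UMI; white is 0 and the colour scale is logarithmic. Klra7 was in 87 of the cells and 94 cells show a single member.

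By the phi coefficient of detection across 1039 barcodes thinned to 1000 UMIs, of which 115 had a Ly49 UMI, the 8 most similar of 5384 genes were Klre1 (0.356), Klrd1 (0.333), Klrk1 (0.270), Nkg7 (0.254), Xcl1 (0.229), S100a6 (0.219), Ikzf2 (0.219) and Klrc2 (0.186). The points are cells of 1 library, and phagocytes among them lack most of these genes. Klre1 was detected in 39.1% of barcodes with and 5.84% of those without a Ly49 UMI. Klrd1, encoding CD94, was in 67.0% with and 20.6% without.

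Within the CD3-transcript class, where cells with and without a Ly49 UMI had medians of 1439.5 and 1216 UMIs, Klrd1 was at 1088 CPM with and 225 CPM without a Ly49 UMI, 4.84-fold (3.93 to 5.99). Klre1 was 5.16-fold (3.74 to 7.17), Klrk1, encoding the activating receptor NKG2D, 3.75-fold (2.91 to 4.84) and Klrc2, a CD94 partner, 2.298-fold (1.47 to 3.58) higher in cells with a Ly49 UMI. Klrb1c, encoding NK1.1, was at 94.4 CPM with and 159 CPM without a Ly49 UMI, a ratio of 0.593 (0.359 to 0.940), and Klrb1f had a ratio of 0.481 (0.251 to 0.858). Of the 13 receptor genes of the NK complex listed, 8 had 20 UMIs, 4 of them at least 2-fold higher and 1 at least 2-fold lower with a Ly49 UMI, against 4.14% of 5044 genes higher and 13.0% lower. The median log2 ratio was 0.96 for the 8 and -0.16 for all genes.

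In the CD8-transcript class Klre1 was at 625 CPM in the 21 cells with and 148 CPM in the 105 cells without a Ly49 UMI (4.23-fold, 2.304 to 7.71). Klrd1 was 1.22-fold (0.883 to 1.65) and Klrk1 1.37-fold (0.843 to 2.16), both with intervals that include 1. Klrd1 was detected in 76.2% of CD8-transcript cells with and 66.7% of those without a Ly49 UMI, whereas in the CD3-transcript class it was in 75.4% with and 15.4% without. Of 5 receptor genes with 20 UMIs, 1 was at least 2-fold higher in CD8-transcript cells with a Ly49 UMI, against 6.26% of 1183 genes higher and 12.4% lower.

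Among genes of Ly49 signalling, the phosphatase gene Ptpn6 was at 156 CPM in CD3-transcript cells with and 162 CPM in those without a Ly49 UMI, a ratio of 0.960 (0.644 to 1.41). Inpp5d had a ratio of 0.501 (0.294 to 0.814). The kinase gene Syk, which acts downstream of ITAM adaptors, had 9 UMIs with and 7 without (3.31-fold, 1.10 to 10.5), and Zap70, its T cell relative, a ratio of 0.671 (0.483 to 0.917). The MHC class I genes that encode Ly49 ligands or their relatives lay within 2-fold of each other in the 2 groups. H2-K1 was at 2016 CPM with and 2645 CPM without a Ly49 UMI (0.762, 0.688 to 0.843) and H2-D1 at 1962 CPM with and 2469.9 CPM without (0.794, 0.716 to 0.881). None of the 7 listed ligand genes was 2-fold apart in either class.

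Ikzf2, encoding the transcription factor Helios, was higher in cells with a Ly49 UMI of both classes. It was at 462 CPM with and 51.2 CPM without in CD8-transcript cells (9.02-fold, 3.80 to 22.98), and at 304 CPM with and 105 CPM without in CD3-transcript cells (2.89-fold, 2.05 to 4.09). Tcf7, the known activator of Ly49 genes, was at 119 CPM with and 108 CPM without a Ly49 UMI in CD3-transcript cells (1.10-fold, 0.686 to 1.72). Tbx21, encoding T-bet, was at 57.5 CPM with and 158 CPM without in those cells (0.365, 0.192 to 0.641). Of the 10 listed regulators, 7 had 20 UMIs in the CD3-transcript class, 1 at least 2-fold higher and 2 at least 2-fold lower with a Ly49 UMI, beside 4.14% and 13.0% of all genes.

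Cytotoxic genes lay on both sides. In CD3-transcript cells the granzyme gene Gzma was at 2188 CPM with and 272 CPM without a Ly49 UMI, 8.04-fold (6.75 to 9.60), and Gzmb at 887 with and 276 without, 3.22-fold (2.62 to 3.95). Ccl5, a chemokine gene of memory and effector lymphocytes, was 2.57-fold (2.48 to 2.67) higher. Ifng, encoding interferon gamma, was at 78.0 CPM with and 237 CPM without a Ly49 UMI (0.329, 0.192 to 0.532), and Fasl had a ratio of 0.403 (0.184 to 0.790). In CD8-transcript cells Gzmb was 3.10-fold (1.99 to 4.77) and Ifng 3.19-fold (1.50 to 6.57) higher with a Ly49 UMI, while Gzma had a ratio of 0.513 (0.388 to 0.668). By UMIs, Gzma and Ifng thus lay on opposite sides of 1 in the 2 classes. Their intervals exclude 1 in each but leave out how UMIs cluster in cells, and the difference between the classes was not tested. Without cells with UMIs of at least 2 cycling genes, Gzma in CD8-transcript cells had a ratio of 0.634 (0.458 to 0.860). It was then in 6 of 20 cells with and 31 of 96 without a Ly49 UMI, shares that lay close together. In CD3-transcript cells it was in 35 of 107 with and 16 of 451 without. Of the 7 cytotoxic genes with 20 UMIs in CD3-transcript cells, 3 were at least 2-fold higher and 2 at least 2-fold lower with a Ly49 UMI, beside 4.14% and 13.0% of all genes.

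**Figure D5:**
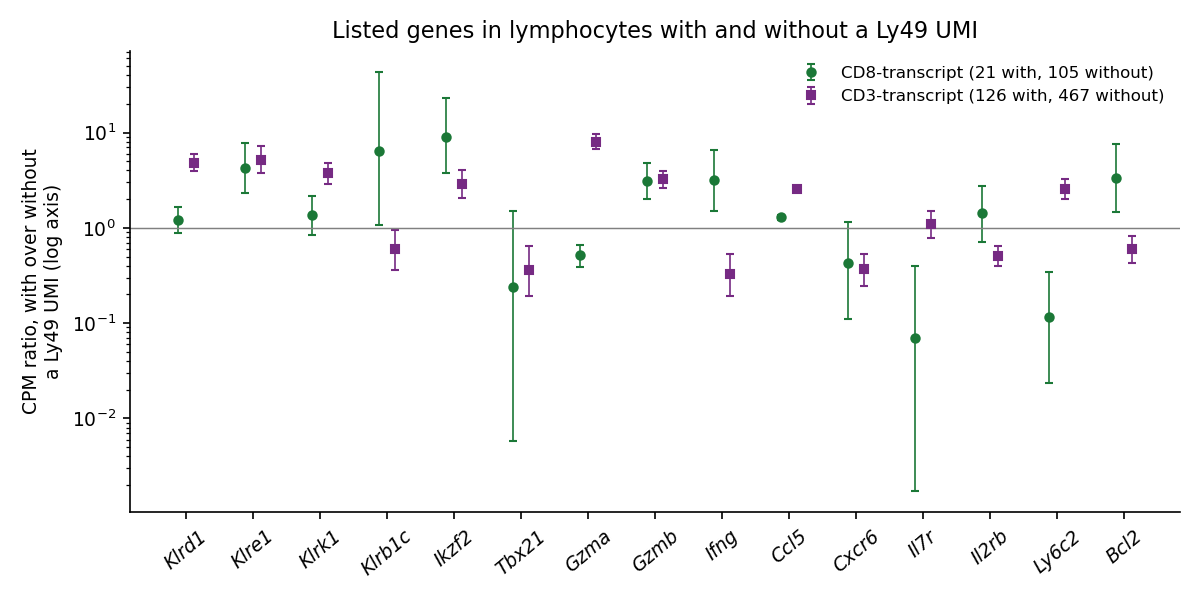
Ratio of CPM in lymphocytes with a Ly49 UMI over those without (log axis) for 15 listed genes, in CD8-transcript (green circles) and CD3-transcript (purple squares) cells of the CD122+CD49a+ library, with exact 95% conditional intervals for counting error. Gzma is at 0.513 in CD8-transcript and 8.04 in CD3-transcript cells, and Ikzf2 is above 1 in both. The intervals leave out how UMIs cluster in cells.

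Residency and memory genes were also on both sides. In CD3-transcript cells Cxcr6, a chemokine receptor that holds lymphocytes in liver sinusoids, was at 135 CPM with and 369 CPM without a Ly49 UMI (0.367, 0.247 to 0.530), and Inpp4b had a ratio of 0.215 (0.0956 to 0.423). Ly6c2, a surface antigen gene of memory CD8 T cells, was 2.58-fold (2.02 to 3.28) higher. Il2rb had a ratio of 0.509 (0.397 to 0.647). None of the 8 residency genes with 20 UMIs in CD3-transcript cells was at least 2-fold higher with a Ly49 UMI, beside 4.14% of all genes. At least 2-fold lower were 3, beside 13.0%. In CD8-transcript cells the residency list summed to 1740 CPM with and 1001 CPM without a Ly49 UMI (1.74-fold, 1.28 to 2.33). Rgs1 alone gave 36 of the list's 64 UMIs in cells with and 47 of its 176 UMIs in cells without a Ly49 UMI. Of its 4 genes with 20 UMIs there, 1 was at least 2-fold higher, Rgs1, and 1 lower, Cxcr6, beside 6.26% and 12.4% of all genes. In CD8-transcript cells Ly6c2 went the other way, with 3 UMIs in the 21 cells with and 124 in the 105 cells without a Ly49 UMI (0.116, 0.0235 to 0.346). Il7r, the interleukin-7 receptor, had 1 UMI with and 69 without (0.0692, 0.00173 to 0.399) there. Bcl2, a survival gene, was 3.37-fold (1.47 to 7.49) higher in CD8-transcript cells with a Ly49 UMI and had a ratio of 0.595 (0.425 to 0.818) in CD3-transcript cells.

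Ranked over 656 genes with 30 UMIs, the genes with the largest ratios toward CD8-transcript cells with a Ly49 UMI were Fcer1g (16.0-fold), Tyrobp (15.4-fold), the immediate early gene Jun (6.46-fold), Cd7 (5.15-fold), Klre1, Rgs1 (3.66-fold), the kinase gene Txk (3.64-fold) and the chemokine gene Xcl1 (3.58-fold). On the other side were Il7r, the interleukin-18 receptor genes Il18r1 and Il18rap, Ly6c2, Cd8b1, 4930523C07Rik, Glipr2 and Ddx21. Cd8b1 had 5 UMIs with and 200 without a Ly49 UMI, and Cd8a 27 with and 93 without, a ratio of 1.39 (0.868 to 2.15). In CD3-transcript cells the same ranking, added after the values were seen, gave Cd244 (10.7-fold), encoding the receptor 2B4, Fcer1g (10.3-fold), Lat2 (9.94-fold), the integrin gene Itgax (9.14-fold), 2810417H13Rik, Stmn1 (8.47-fold), Gzma and Tyrobp (7.08-fold). The lowest ratios included Cd4, with 2 UMIs with and 78 without a Ly49 UMI, Il4, with 4 and 93, Il2ra, with 1 and 39, and the transcription factor gene Rora, with 3 and 69.

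Markers of several lymphocyte kinds moved with the Ly49 split in the CD3-transcript class, and their part in it was not tested. The lists share some genes, such as Cxcr6 and Klrb1c, and their counts stand beside 4.14% of all genes at least 2-fold higher and 13.0% lower. Of the 6 NKT cell markers, 4 were at least 2-fold lower with a Ly49 UMI and none higher, their summed level being 640 CPM with and 1414 CPM without. Zbtb16, encoding PLZF, the defining factor of NKT cells, had 3 UMIs with and 36 without a Ly49 UMI. Of 10 T cell markers, 4 were at least 2-fold lower, and Cd3d, which was not among them, was at 1121 CPM with and 1341 CPM without (0.836, 0.726 to 0.959). The NK cell list summed to 1544 CPM with and 561 CPM without, with 2 of 3 testable markers, Gzmb and Klre1, at least 2-fold higher. Klrb1c, the remaining testable NK marker, was lower with a Ly49 UMI. The ILC1 list summed to 603 CPM with and 920 CPM without, with 2 of 5 testable markers at least 2-fold lower and none higher. All 7 testable cycling markers were at least 2-fold higher with a Ly49 UMI, and 19 of 126 cells with (15.1%, 9.33 to 22.5) and 16 of 467 without (3.43%, 1.97 to 5.50) had UMIs of at least 2 of the 8 cycling genes. These shares were not thinned, and the part of depth in them was not tested. These cells had a median of 2956 UMIs with and 2035 without a Ly49 UMI, above the class medians of 1439.5 and 1216. Without these cells Gzma was 7.33-fold (6.07 to 8.88), Klrd1 5.49-fold (4.37 to 6.90) and Fcer1g 11.9-fold (9.26 to 15.5) higher, and Stmn1 was 2.25-fold (0.579 to 7.80). The monocyte and macrophage list summed to 103 CPM with and 279 CPM without a Ly49 UMI. Of its 10 genes, 6 were at 0 in cells with and 5 in cells without a Ly49 UMI, so these zeros hardly separate the groups. Its 2 testable genes were Lyz2 and Ccr2. Lyz2 was level, at 28.7 CPM with and 27.1 CPM without a Ly49 UMI, and Ccr2 was at least 2-fold lower with one. The conventional dendritic cell list summed to 193 CPM with and 25.5 CPM without, of which Itgax gave 39 of 47 UMIs with and 11 of 16 without.

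In CD8-transcript cells all 10 monocyte and macrophage markers were at 0 in the 21 cells with a Ly49 UMI, against 267 CPM in the cells without. In the cells without, 6 of the 10 were at 0 too, and Lyz2 gave 5 of the 47 UMIs. Ccr2 was the only testable marker of this list in CD8-transcript cells. The cycling list lay in the opposite direction there, at 163 CPM with and 768 CPM without a Ly49 UMI. UMIs of at least 2 cycling genes were in 1 of 21 cells with (4.76%, 0.120 to 23.8) and 9 of 105 without (8.57%, 3.99 to 15.6), with overlapping intervals. Of 8 testable T cell markers, 1 was at least 2-fold higher with a Ly49 UMI, Cd3g, at 1821 CPM with and 910 CPM without, and 3 were at least 2-fold lower. The NK cell list summed to 1821 CPM with and 575 CPM without a Ly49 UMI, with both testable markers, Gzmb and Klre1, at least 2-fold higher. Of its 9 markers, 4 were at 0 in the 21 cells with and 1 in the 105 cells without a Ly49 UMI. The ILC1 list summed to 381 CPM with and 774 CPM without, with both testable markers, Cxcr6 and Il7r, at least 2-fold lower. The part of these lists in the split was not tested.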

How the data were processed

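Single-cell libraries of CD45+ liver leukocytes were analysed, 1 library for each gate. The deposited values are raw UMI counts per gene and barcode. Per the file headers, they were written by software of version 3.0.1. The submitters' processing notes list GRCm38, STAR and Seurat 2.3.0 without saying what each did. No source used here says how reads common to several Ly49 genes were counted. Groups come from the sample labels.

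Barcodes with at least 500 detected genes were kept. Classes rest on a per-cell comparison of 2 sums of 20 genes each, and 4 CD122+CD49a+ and 107 LSM barcodes lay within 1 UMI of the boundary. Class membership by CD8, CD3 or adaptor needed 1 UMI. Shares were compared after thinning each barcode to 1000 UMIs, which left out 218 CD122+CD49a+ barcodes and 22 LSM barcodes, and carry exact Clopper-Pearson intervals. Summed counts were scaled to CPM, ratios carry exact conditional 95% intervals, and a group with no UMI entered a ratio with 3 counts. Limits beside a share of 0 are 3 counts of the cells, except for barcodes under 500 genes, where the exact binomial limit is given. A fold of 2 was the threshold, among genes with 20 UMIs. No test across samples was possible. Scrublet (scanpy 1.11.5) gave doublet scores. Its own threshold marked 0.181% of CD122+CD49a+ and 0.351% of LSM barcodes, too few to have worked, so doublets were kept and the 22 and 79 highest scores were removed as an alternative. TMM factors came from edgeR 4.0.16.

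The members and gene lists were chosen with earlier results of these data known. Named genes are the members, the genes of 8 fixed lists, the 8 genes of highest phi coefficient and the 8 with the largest ratio in each direction in CD8-transcript lymphocytes. Genes of the cell type marker lists, the gate markers, the CD8 chains and the phagocyte transcripts Lyz2 and Cst3 are named as well. The ranking in CD3-transcript lymphocytes, the CD8 chain split and the removal of cycling cells were added after the values were seen. The interval code was tested on simulated data. One gene of the memory list, and the counts over that list, are not reported here.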

Additional observations from a re-analysis of the deposited data

Results flagged for a closer look

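Barcodes under the minimum of 500 detected genes were left out of every comparison, and Ly49 transcripts appeared in them. Of 398 such CD122+CD49a+ barcodes, 48 (12.1%, 9.03 to 15.7) had a Ly49 UMI, compared with 0 of 59 such LSM barcodes, which allows up to 6.06% by the exact binomial interval. The 48 barcodes held 108 Ly49 UMIs, 52 of them of Klra7, and 17 held 2 or more members. The median depth of the 398 was 666 UMIs. A Ly49 UMI was present in 27 of 174 with a Tyrobp or Fcer1g UMI (15.5%) and 21 of 224 without (9.38%). These shares cover all 398 barcodes, not lymphocytes alone, so they are unlike the adaptor split within CD8-transcript and CD3-transcript lymphocytes.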

How the results depend on the processing

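Of 154 values over 21 results, 126 stayed within the counting interval of the reported value, 27 moved and 1 changed side. That one is the CPM ratio of CD8-transcript over CD3-transcript lymphocytes, reported as 0.799 and at 1.15 under a rule asking for 2 lymphocyte UMIs and at most 1 phagocyte UMI; the cause was not tested. The strict rule also put 5.19% of other barcodes at a Ly49 UMI. With at least 1000 detected genes the share was 36.1% in CD3-transcript cells, 15.0% in those without an adaptor UMI and 0% in CD8-transcript cells without one. At that minimum 2 or more members were in 100% of positive CD8-transcript (1 of 1 cell) and 53.8% of positive CD3-transcript cells, and the ratios were 0.148 for CD8-transcript over CD3-transcript and at least 7.15 for CD8-transcript with over without an adaptor UMI. With at least 300 genes this last ratio was 14.0, and 38.6% of positive CD3-transcript cells had 2 or more members. When 2 UMIs set the class, 66.7% of adaptor-positive CD8-transcript cells had a Ly49 UMI, 71.4% of positive CD8-transcript cells had 2 or more members and the CD8 over CD3 ratio was 0.564. Without thinning, 38.9% of positive CD3-transcript cells had 2 or more members. At 1500 UMIs per cell the share was 29.0% in CD3-transcript cells, 72.1% in adaptor-positive ones, and 41.5% of positive cells had 2 or more members. The summed ratio of CD122+CD49a+ over LSM was 55.6 with TMM factors and 30.9 over lymphocytes by score only. In the LSM library 84 of the 232 lymphocytes by score had a CD3 or CD8 UMI. With CD3 or CD8 the summed level was 470 CPM in CD122+CD49a+ and 66.1 CPM in LSM lymphocytes. Over lymphocytes by score only the members' own ratios were at least 68.9 for Klra7, at least 25.6 for Klra1 and at least 11.3 for Klra6. Those bounds took a floor of 3 counts. The other ratios were 30.5 for Klra5, 10.8 for Klra3 and 5.86 for Klra9. With CPM averaged over cells they were 18.1 for Klra9 and 1.23 for Klra4. The adaptor split kept its direction under each alternative run. No paired analysis was possible because there is 1 library for each gate. Depth limits every share, since a cell with no Ly49 UMI may still express a member.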

Other observations

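A pair of Ly49-named genes outside the 8 members had a different distribution. Klra2, encoding Ly49B, a member known from myeloid cells, had 51 UMIs (21.7 CPM) in the CD122+CD49a+ library and 180 UMIs (11.1 CPM) in the LSM library, 1.95-fold (1.40 to 2.67). Among barcodes led by monocyte and macrophage markers it was detected in 28 of 183 in the CD122+CD49a+ library (15.3%) and 110 of 610 in the LSM library (18.0%). Klra17, encoding Ly49Q, known from plasmacytoid dendritic cells, had 17 UMIs in the CD122+CD49a+ library and 272 in the LSM library, a ratio of 0.430 (0.247 to 0.702). Among barcodes led by plasmacytoid dendritic cell markers it was detected in 3 of 19 in the CD122+CD49a+ library (15.8%) and 92 of 591 in the LSM library (15.6%), and among LSM barcodes led by conventional dendritic cell markers in 38 of 611 (6.22%). Klra10 had 1 UMI in the CD122+CD49a+ library and 0 in the LSM library.

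Among the 591 LSM barcodes led by plasmacytoid dendritic cell markers, 7 (1.18%) had a UMI of any of the 8 members. The share was 0.880% of all 2842 LSM barcodes outside the lymphocytes and 1.56% of the 703 not assigned to a marker list. The 7 barcodes held 15 UMIs, including all 4 Klra7 UMIs and the only Klra8 UMI of the LSM library. These assignments to marker lists were made after the values were seen.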
